A study of Mus musculus with 19 samples.

Results

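The 10 genes described here encode matricellular proteins and close companions of the extracellular matrix: Postn, Tgfbi, Tnc, Thbs1, Thbs2, Sparc, Sparcl1, Fn1, Ccdc80 and Spp1. They are 10 of the 24343 gene symbols in the tables, and all 10 were found, through 23 RefSeq transcripts. They were chosen by name, with their levels in these libraries already in view and because some of them differ in opposite directions in stromal and luminal cells. The genotype differences of the 10 genes are therefore given as descriptions and carry no p-value.

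RNA was sequenced from basal, luminal and stromal cells sorted by flow cytometry from the anterior prostates of mice. The Lgr5-DTR libraries (4 stromal, 3 basal and 3 luminal) came from Lgr5-DTR-eGFP mice given diphtheria toxin (DT), and the wild type libraries (3 of each population) came from control mice without that allele. The allele places a diphtheria toxin receptor and a green fluorescent protein under control of Lgr5, so that toxin kills Lgr5-expressing cells wherever they are in the animal, and the study asked what follows from loss of those in the stroma. The growth protocol names C57BL/6 as the purchased strain and a separate donor laboratory for the Lgr5-DTR-eGFP line. Neither the toxin status of the wild type mice nor the age of any mouse was given in the sources used here, so allele, toxin and animal source cannot be told apart. The labels do not tie the libraries of a group to different animals, and the spread behind every SD and p-value may be technical.

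The libraries held 5.26 to 9.38 gigabases on annotated transcripts, and 9209 to 10819 genes reached 1 FPKM (fragments scaled to transcript length and library size, so that levels of different genes can be compared). Lgr5 itself measured 0.916 ± 0.338 FPKM in Lgr5-DTR stromal cells (SD, n = 4) and 44.2 ± 29.0 FPKM in wild type stromal cells (SD, n = 3), which cannot tell loss of the cells from loss of the transcript at the altered allele. In luminal cells Lgr5 was at 0.612 ± 0.0585 FPKM in Lgr5-DTR and 1.82 ± 0.24 FPKM in wild type, without overlap (SD, n = 3 each). The basal groups overlapped, at 0.862 ± 0.524 FPKM in Lgr5-DTR and 0.780 ± 0.106 FPKM in wild type (SD, n = 3 each). Of the 19 libraries, 7 carried 424 low-data status entries each and 12 carried 0. The reason is not given in the sources used here. The 7 are called the processing set below, a name given here and not in the labels. They were Lgr5-DTR basal replicates 1 and 3, Lgr5-DTR luminal replicate 1, Lgr5-DTR stromal replicate 3, wild type basal replicate 2 and wild type luminal replicates 1 and 3. All 23 transcripts of the 10 genes had the status OK in every library, and none of the 10 genes overlaps another annotated gene.

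Matricellular proteins are secreted into the matrix but serve less as scaffold than as signals: they bind collagens, growth factors and cell-surface receptors such as integrins, CD44, CD36 and CD47, and so tune adhesion, migration and matrix assembly. They are typically scarce in resting adult tissue and abundant in development, wound repair and the reactive stroma around tumours, the prostate included. Periostin and TGFBI share fasciclin domains and bind integrins, tenascin-C loosens adhesion to fibronectin, thrombospondins bind CD36 and CD47, and SPARC and its relative SPARCL1 bind collagen. Fibronectin is a scaffold protein that several of them bind, CCDC80 is a secreted matrix-associated protein, and osteopontin, the product of Spp1, is a ligand of integrins and CD44.

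Periostin is made in splice forms that differ in coding exons near the end of the protein, and the tables list 3 of its transcripts. NM_001198765 carries an exon of 81 nt, which is its exon 17 of 22. NM_015784 carries an exon of 84 nt, its exon 20 of 22, and NM_001198766 has neither. Both exons are shown because the balance between them differed between the sorted populations. They are read from GRCm38 (mm10) with its GENCODE M21 annotation, on the plus strand of chromosome 3, at chr3:54380412-54380492 and chr3:54385671-54385754.
Postn exon of 81 nt: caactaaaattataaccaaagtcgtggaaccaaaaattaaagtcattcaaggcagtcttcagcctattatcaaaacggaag
Postn exon of 84 nt: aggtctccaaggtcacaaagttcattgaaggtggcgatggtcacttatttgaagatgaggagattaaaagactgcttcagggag
Both are wholly coding, and 34.6% of the bases of the shorter exon and 44.0% of those of the longer one are G or C.

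The RefSeq promoter table (GRCm38.p6) held 6 of the 10 genes, Postn, Tgfbi, Tnc, Thbs2, Sparc and Spp1, with 9 windows of 250 bases before to 50 bases after a gene start. A TATA-type motif, TATATAA on either strand, was present in 2 of the 9 windows, 1 of the 2 windows of Postn and 1 of the 2 of Tnc. Of all 32851 windows of the same length, 3.24% held it. The motifs TGANTCA (of AP-1), GGAATG (of TEAD) and the CArG box (of serum response factor), searched on both strands, were in 0 of the 9 windows, against 7.81%, 14.66% and 1.63% of all windows. These letters describe the sequence only. The 150 bases before the Postn start, at chr3:54360957-54361106 on the plus strand, are shown with the motif in capitals, 28 bases before the start.
Postn upstream: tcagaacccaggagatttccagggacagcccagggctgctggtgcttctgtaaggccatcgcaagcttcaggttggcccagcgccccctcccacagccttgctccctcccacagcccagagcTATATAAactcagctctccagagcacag

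The 10 genes ranged from very abundant to barely listed transcripts. Sparc and Thbs1 were the most abundant. Sparc averaged 829 ± 299 FPKM in Lgr5-DTR stromal cells (SD, n = 4) and 1426 ± 141 FPKM in wild type stromal cells (SD, n = 3), ranks 43 and 23 among all genes. Thbs1 averaged 535 ± 118 FPKM in Lgr5-DTR basal cells and 683 ± 195 FPKM in wild type basal cells (SD, n = 3 each), ranks 105 and 78. Sparcl1 was a stromal transcript in both genotypes, at 188 to 217 FPKM in Lgr5-DTR and 190 to 223 FPKM in wild type stromal cells, and at most 39.7 FPKM in any epithelial library. Spp1 was the least abundant in the stroma, at 0.569 to 1.68 FPKM in Lgr5-DTR libraries and 0 to 0.682 FPKM in wild type libraries.

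**Figure D1:**
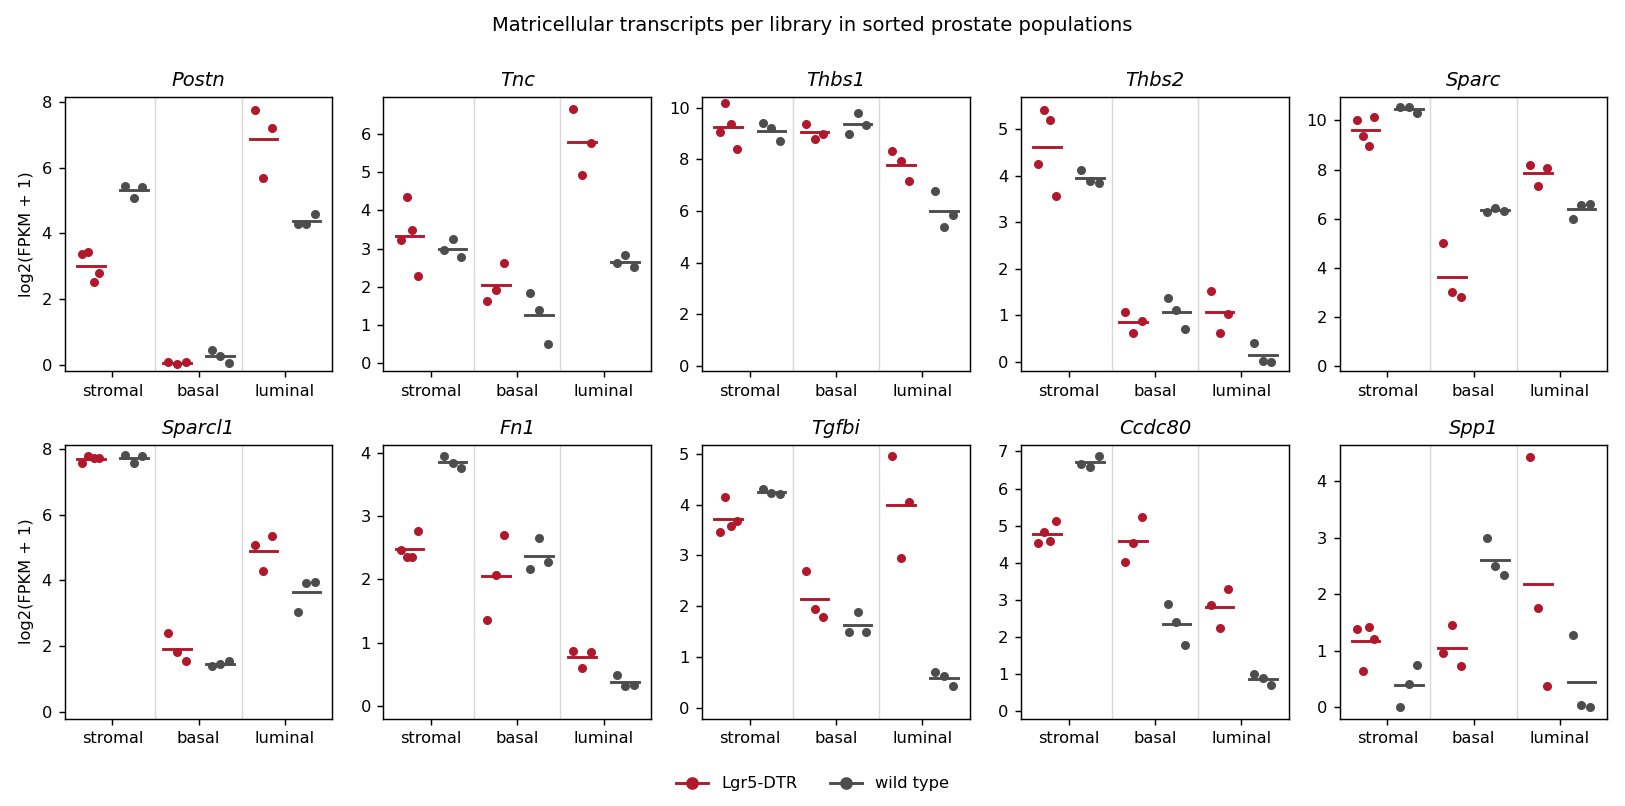
Level of each of the 10 genes in each library, as log2(FPKM + 1), with Lgr5-DTR (red) left of wild type (grey) in stromal, basal and luminal cells; points are libraries and bars are group means. Postn is highest in Lgr5-DTR luminal cells (50.2 to 217 FPKM) and lowest in the basal libraries (at most 0.351 FPKM), whereas Sparcl1 is highest in both stromal groups.

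The order of the 6 groups differed from gene to gene. Postn was highest in Lgr5-DTR luminal cells, followed by wild type stromal, wild type luminal, Lgr5-DTR stromal and then the basal groups. Among these neighbours only the basal groups overlapped. Tnc was highest in Lgr5-DTR luminal cells, apart from every other group, and the 5 groups below it each overlapped the next. Sparc, Sparcl1, Fn1, Tgfbi and Ccdc80 had their highest mean in wild type stromal cells, but Sparcl1 overlapped Lgr5-DTR stromal cells there and Tgfbi overlapped Lgr5-DTR luminal cells. Thbs2 was highest in Lgr5-DTR stromal cells and Thbs1 in wild type basal cells, each overlapping the group ranked next. Spp1 was highest in Lgr5-DTR luminal cells on average, through 1 library, and overlapped wild type basal cells.

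In stromal cells, 5 of the 10 genes were lower in every Lgr5-DTR library than in any wild type library and none was higher in every library. Over all 10689 tested genes, 9.39% were lower and 1.80% higher without overlap. In limma's fit over all genes (Benjamini-Hochberg adjusted p under 0.05), 1.10% of all genes were past the threshold on the lower side and 1.17% in either direction. Since these differences helped to choose the genes, no call is given for the 10 genes and nothing is read from the count without overlap. The median log2 difference of the 10 genes was -0.28 and that of all tested genes -0.09. In bulk RNA, fewer cells of a type and less RNA per cell cannot be told apart.

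Postn, a fasciclin-domain ligand of integrins, measured 9.29, 9.74, 4.68 and 5.88 FPKM in Lgr5-DTR stromal libraries, against 42.5, 32.8 and 41.6 FPKM in wild type stromal libraries. Each Lgr5-DTR library lay far below each wild type library. The difference, as for every log2 value here on the log2(FPKM + 1) scale and as Lgr5-DTR minus wild type, was -2.29 (SE 0.27), and the wild type mean was 5.27 times the Lgr5-DTR mean. Its relative Tgfbi measured 10.03, 16.8, 11.0 and 11.8 FPKM in Lgr5-DTR libraries, against 18.8, 17.6 and 17.6 FPKM in wild type libraries. The groups were separate but close, since Lgr5-DTR replicate 2 came near the wild type values, and the difference was -0.53 (SE 0.22).

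The collagen-binding proteins behaved differently from each other. Sparc measured 1036, 664, 494 and 1122 FPKM in Lgr5-DTR libraries, against 1511, 1504 and 1263 FPKM in wild type libraries, a difference of -0.85 (SE 0.27). Lgr5-DTR replicate 4 came nearest to wild type and replicate 3 lay lowest. Sparcl1 measured 188, 217, 209 and 211 FPKM in Lgr5-DTR libraries, against 223, 190 and 220 FPKM in wild type libraries. The groups lay on top of each other, with a difference of -0.03 (SE 0.17), which was 0.12 after quantile scaling.

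The scaffold gene Fn1 measured 4.50, 4.09, 4.10 and 5.79 FPKM in Lgr5-DTR libraries, against 14.4, 13.3 and 12.6 FPKM in wild type libraries. The spread within each genotype was small beside the gap, and the difference was -1.37 (SE 0.21). With each stromal library left out in turn, the Fn1 difference ran from -1.46 (without Lgr5-DTR replicate 4) to -1.32 (without wild type replicate 1). Ccdc80, for a secreted matrix-associated protein, measured 22.1, 27.6, 23.0 and 33.6 FPKM in Lgr5-DTR libraries, against 101, 95.6 and 116 FPKM in wild type libraries. No library came near the other genotype, and the difference was -1.94 (SE 0.21), with a wild type mean 3.92 times the Lgr5-DTR mean.

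Tenascin-C, the thrombospondins and osteopontin did not separate the genotypes in the stroma. Tnc measured 8.32, 19.5, 10.3 and 3.85 FPKM in Lgr5-DTR libraries, against 6.83, 8.55 and 5.87 FPKM in wild type libraries, a difference of 0.34 (SE 0.40). Thbs1 measured 527, 1153, 661 and 338 FPKM in Lgr5-DTR libraries, against 677, 587 and 424 FPKM in wild type libraries, a difference of 0.14 (SE 0.35). Thbs2, a second thrombospondin that likewise binds CD36 and CD47, measured 18.2, 41.9, 35.8 and 10.9 FPKM in Lgr5-DTR libraries, against 16.5, 13.8 and 13.5 FPKM in wild type libraries, a difference of 0.66 (SE 0.39). For all 3 genes Lgr5-DTR replicate 2 was the highest stromal library and replicate 4 the lowest, so that the Lgr5-DTR libraries enclosed the wild type range. Spp1 measured 1.62, 0.569, 1.68 and 1.32 FPKM in Lgr5-DTR libraries and was listed at 0, 0.330 and 0.682 FPKM in wild type libraries, a difference of 0.78 (SE 0.28). Its groups overlapped only through Lgr5-DTR replicate 2.

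The stromal libraries also differed in their markers. The 12 fibroblast markers summed to 7098 to 9259 FPKM in Lgr5-DTR libraries and 15586 to 19085 FPKM in wild type libraries, and 10 of the 12 were lower in every Lgr5-DTR library. The wild type sum averaged 2.09 times the Lgr5-DTR sum, a ratio set mainly by Gsn and Dcn. Gsn had medians of 3222 FPKM in Lgr5-DTR and 8626 FPKM in wild type libraries, and Dcn had 2364 and 3946 FPKM. Single markers ranged from Pdgfra (medians 41.0 and 44.3 FPKM, with overlap) to Dpt (51.4 and 279 FPKM). The summed ratio is therefore no measure against which to set single genes. The 8 smooth muscle markers summed to 397 to 498 FPKM in Lgr5-DTR libraries and 283 to 345 FPKM in wild type libraries, with 3 of 8 higher in every Lgr5-DTR library and Lmod1 below 1 FPKM in all. Macrophage markers (12 in the tables) summed to 16.2 to 26.4 FPKM in Lgr5-DTR libraries and 6.15 to 14.8 FPKM in wild type libraries, while Csf1r, Adgre1 and Ptprc stayed below 1 FPKM. Over all tested genes 9.39% were lower and 1.80% higher without overlap. The part of these markers in the stromal differences was not tested.

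In basal cells, 2 of the 9 genes that passed the filter on low values were lower in every Lgr5-DTR library and 1 was higher. Over all 9755 tested genes 13.7% were lower and 17.5% higher without overlap. Past limma's threshold were 11.0% of all tested genes (6.50% higher and 4.46% lower). For the reason given above, no call is given for the 9 genes and nothing is read from the counts without overlap. The median log2 difference of the 9 genes was -0.21, against 0.02 for all tested genes.

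Sparc measured 31.5, 7.10 and 6.12 FPKM in Lgr5-DTR basal libraries, against 77.1, 85.5 and 78.5 FPKM in wild type basal libraries. The wild type libraries lay close together, whereas Lgr5-DTR replicate 1 stood above the other two, and the difference was -2.72 (SE 0.50). With each basal library left out in turn, the Sparc difference ran from -3.42 (without Lgr5-DTR replicate 1) to -2.33 (without Lgr5-DTR replicate 3). Spp1, a ligand of integrins and CD44, measured 0.941, 1.74 and 0.656 FPKM in Lgr5-DTR libraries, against 7.01, 4.66 and 4.04 FPKM in wild type libraries, a difference of -1.57 (SE 0.26). Its wild type basal level was higher than in any other wild type population.

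Ccdc80 ran the other way from its stromal difference. It measured 15.1, 22.3 and 36.9 FPKM in Lgr5-DTR basal libraries, against 6.38, 4.28 and 2.45 FPKM in wild type basal libraries, a difference of 2.24 (SE 0.36). The Lgr5-DTR mean was 5.66 times the wild type mean, and Lgr5-DTR basal cells reached the level of Lgr5-DTR stromal cells, with overlapping ranges.

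Of the other basal values, Thbs1 was abundant in both genotypes, at 667, 440 and 499 FPKM in Lgr5-DTR libraries, against 506, 892 and 650 FPKM in wild type libraries, a difference of -0.33 (SE 0.24). Tnc measured 2.08, 2.80 and 5.16 FPKM in Lgr5-DTR libraries, against 2.61, 1.66 and 0.421 FPKM in wild type libraries, a difference of 0.80 (SE 0.38). Wild type replicate 1 lay inside the Lgr5-DTR range. Tgfbi, Sparcl1, Fn1 and Thbs2 stayed between 0.529 and 5.53 FPKM in every basal library, and their genotypes overlapped. Their differences were 0.52 (SE 0.26) for Tgfbi, 0.46 (SE 0.24) for Sparcl1, -0.32 (SE 0.32) for Fn1 and -0.21 (SE 0.24) for Thbs2. Postn was at 0.0101 to 0.0604 FPKM in Lgr5-DTR libraries and 0.0347 to 0.351 FPKM in wild type libraries, below the filter.

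Basal epithelial markers (8) summed to 7620 to 9188 FPKM in Lgr5-DTR basal libraries and 10333 to 13301 FPKM in wild type basal libraries, with 4 lower and 2 (Krt5 and Col17a1) higher in every Lgr5-DTR library. The fibroblast list summed to 571 to 1073 FPKM in Lgr5-DTR and 989 to 1223 FPKM in wild type basal libraries, mostly through Dcn and Gsn. Of its 12 markers, 8 were below 1 FPKM in all 6, Col1a1, Lum and Pdgfra among them. The genotypes overlapped in the sum of the list and in Gsn (256 to 433 FPKM in Lgr5-DTR and 254 to 372 FPKM in wild type). Of the 12 markers, 7 were lower in every Lgr5-DTR library. Among these 7, Col1a1, Col1a2, Lum and Dpt were below 1 FPKM in all. The 8 smooth muscle markers summed to 257 to 331 FPKM in Lgr5-DTR and 430 to 487 FPKM in wild type basal libraries, with 4 lower and 1 higher in every Lgr5-DTR library. Most of this sum was Smtn, at 246 to 317 FPKM in Lgr5-DTR and 388 to 452 FPKM in wild type. Myh11, Actg2, Des and Lmod1, the 1 higher marker, were below 1 FPKM in all. The macrophage list summed to 14.8 to 20.5 FPKM in Lgr5-DTR and 7.02 to 11.5 FPKM in wild type basal libraries (6 of 12 higher in every Lgr5-DTR library), with Csf1r, Adgre1 and Ptprc below 1 FPKM in all. Adgre1 and Aif1, both below 1 FPKM in all, were among these 6. The endothelial list summed to 16.8 to 37.2 FPKM in Lgr5-DTR and 9.63 to 14.9 FPKM in wild type basal libraries (5 of 10 higher in every Lgr5-DTR library), with Tek and Vwf below 1 FPKM in all. Over all tested genes 13.7% were lower and 17.5% higher without overlap, and nothing is read from the counts of markers. The part of these markers in the basal differences was not tested.

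In luminal cells, 7 of the 8 genes that passed the filter were higher in every Lgr5-DTR library than in any wild type library, and none was lower. Over all 10524 tested genes 17.4% were higher and 9.63% lower without overlap. Past limma's threshold were 2.62% of all genes on the higher side, 0.513% on the lower side and 3.14% on either. For the same reason, no call is given for the 8 genes and nothing is read from the counts without overlap. The median log2 difference of the 8 genes was 1.86 and that of all tested genes 0.10. A gene that passed the filter only through the Lgr5-DTR libraries had to differ, which holds for Tgfbi and Ccdc80, whose wild type values were all below 1 FPKM.

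Postn measured 217, 50.2 and 149 FPKM in Lgr5-DTR luminal libraries, against 18.4, 18.5 and 23.1 FPKM in wild type luminal libraries, a difference of 2.51 (SE 0.49). Even the lowest Lgr5-DTR library was above every wild type one, and the Lgr5-DTR mean was 6.94 times the wild type mean. Tgfbi, the other fasciclin-domain gene, measured 29.9, 6.76 and 15.6 FPKM in Lgr5-DTR libraries, against 0.632, 0.555 and 0.358 FPKM in wild type libraries, a difference of 3.39 (SE 0.44). It was barely listed in wild type luminal cells and reached the range of stromal cells in Lgr5-DTR luminal cells. Its ratio of means, 33.8, rests on wild type values below 1 FPKM.

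Tnc, the anti-adhesive partner of fibronectin, measured 99.8, 29.2 and 53.3 FPKM in Lgr5-DTR libraries, against 5.15, 6.14 and 4.78 FPKM in wild type libraries. The difference was 3.12 (SE 0.38) and the ratio of means 11.3. The wild type libraries were within the basal and stromal range of this gene, whereas all Lgr5-DTR luminal libraries were above every other library of the series. Thbs1, a ligand of CD36 and CD47, measured 316, 242 and 143 FPKM in Lgr5-DTR libraries, against 108, 41.2 and 56.7 FPKM in wild type libraries, a difference of 1.79 (SE 0.39). Thbs2 measured 1.87, 0.542 and 1.06 FPKM in Lgr5-DTR libraries and 0.319, 0.0062 and 0 FPKM in wild type libraries, without overlap but below the filter.

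Sparc measured 294, 158 and 270 FPKM in Lgr5-DTR libraries, against 63.4, 93.1 and 97.2 FPKM in wild type libraries, a difference of 1.47 (SE 0.26). Sparcl1 measured 32.7, 18.4 and 39.7 FPKM in Lgr5-DTR libraries, against 7.20, 14.2 and 14.5 FPKM in wild type libraries, a difference of 1.26 (SE 0.33). Both collagen-binding genes were higher, and in both Lgr5-DTR replicate 2 was nearest to wild type.

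Ccdc80 measured 6.21, 3.72 and 8.86 FPKM in Lgr5-DTR libraries, against 0.996, 0.842 and 0.643 FPKM in wild type libraries, a difference of 1.93 (SE 0.29). Fn1 stayed below 1 FPKM in every luminal library, at 0.819, 0.521 and 0.797 FPKM in Lgr5-DTR and 0.398, 0.249 and 0.252 FPKM in wild type cells. The genotypes did not overlap, with Lgr5-DTR higher, but the gene was below the filter. Spp1 measured 20.4, 2.38 and 0.295 FPKM in Lgr5-DTR libraries and 1.43, 0.0306 and 0 FPKM in wild type libraries, a difference of 1.74 (SE 1.04). Its high mean came from replicate 1, and the genotypes overlapped.

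The Lgr5-DTR luminal libraries kept one order for most of the genes. Replicate 1 was the highest of the 3 for 8 of the 10 genes and replicate 2 the lowest for 8 of the 10. Together the 10 genes made up 0.252%, 0.120% and 0.170% of all FPKM in Lgr5-DTR luminal replicates 1, 2 and 3, against 0.0479%, 0.0394% and 0.0520% in the wild type luminal libraries. With the processing set as a covariate the luminal differences were 2.75 for Postn, 3.29 for Tnc, 1.52 for Sparc and 3.62 for Tgfbi. Within that set, Postn had 217 FPKM in Lgr5-DTR replicate 1 against 18.4 and 23.1 FPKM in wild type replicates 1 and 3, and outside it 50.2 and 149 FPKM in Lgr5-DTR replicates 2 and 3 against 18.5 FPKM in wild type replicate 2. With each luminal library left out in turn, the difference ran from 2.07 to 3.11 for Postn and from 2.68 to 3.55 for Tnc. Both were lowest without Lgr5-DTR luminal replicate 1 and highest without Lgr5-DTR luminal replicate 2. For Sparc it ran from 1.28 (without wild type luminal replicate 1) to 1.75 (without Lgr5-DTR luminal replicate 2). Tgfbi and Ccdc80 fell below the filter when any Lgr5-DTR luminal library was left out, so they were not tested there.

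**Figure D2:**
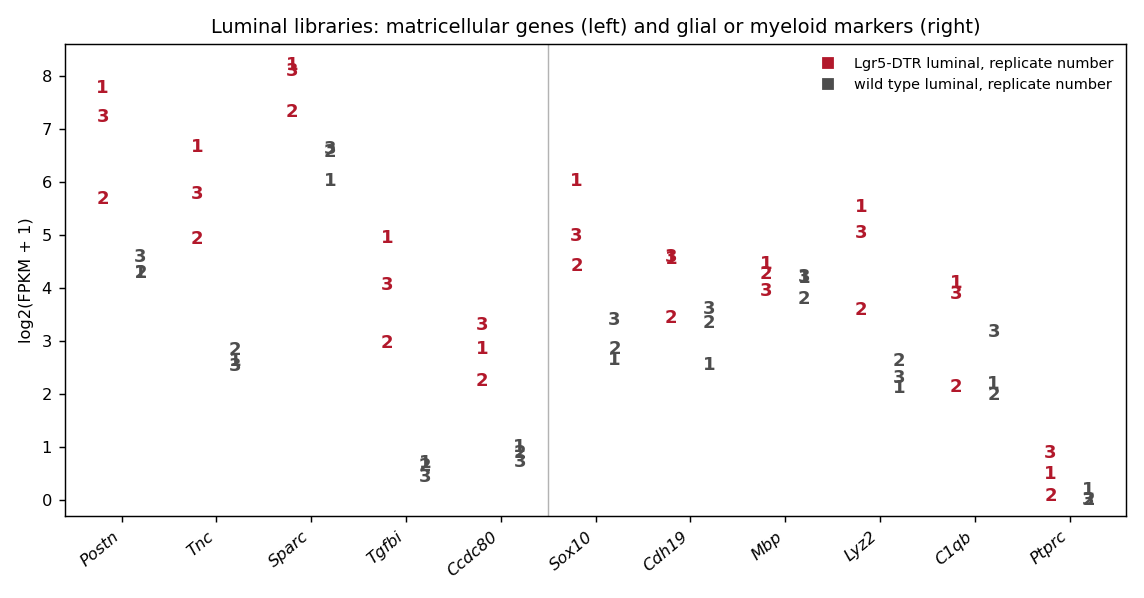
Level as log2(FPKM + 1) in the luminal libraries of 5 of the 10 genes (left of the line) and of markers of Schwann cells (Sox10, Cdh19, Mbp) and macrophages (Lyz2, C1qb, Ptprc) to the right of it; each digit is a library's replicate number, Lgr5-DTR in red and wild type in grey. Lgr5-DTR replicate 2 is the lowest Lgr5-DTR library for Postn (50.2 FPKM), Tnc (29.2 FPKM), Sox10 (20.3 FPKM) and Lyz2 (11.1 FPKM).

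The summed markers of the Schwann cell, macrophage and pericyte lists were higher in every Lgr5-DTR luminal library than in any wild type one. Of all tested genes 17.4% were higher without overlap, so nothing is read from the counts of single markers in luminal cells. The 9 Schwann cell markers in the tables summed to 151, 69.3 and 127 FPKM in Lgr5-DTR luminal replicates 1, 2 and 3 and to 41.0, 47.1 and 63.3 FPKM in wild type luminal libraries, so that the groups did not overlap. Sox10, a transcription factor of glia, measured 20.3 to 64.0 FPKM in Lgr5-DTR and 5.24 to 9.56 FPKM in wild type luminal cells, and was the only one of the 9 higher in every Lgr5-DTR library. The list summed to at most 2.87 FPKM in any stromal library.

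The 12 macrophage markers summed to 102, 25.1 and 75.9 FPKM in Lgr5-DTR luminal replicates 1, 2 and 3, against 15.8 to 22.0 FPKM in wild type luminal libraries, and 2 of the 12, Lyz2 and C1qa, were higher in every Lgr5-DTR library. Lyz2 measured 11.1 to 44.8 FPKM in Lgr5-DTR libraries, against 3.33 to 5.17 FPKM in wild type libraries, while Ptprc, the pan-leukocyte CD45 gene, Mrc1 and Cd163 were below 1 FPKM in all 6 libraries. The 6 pericyte markers summed to 16.1 to 34.2 FPKM in Lgr5-DTR and 6.40 to 13.6 FPKM in wild type luminal libraries, with 1 of 6, Kcnj8, higher in every Lgr5-DTR library. The fibroblast markers summed to 201 to 310 FPKM in Lgr5-DTR and 194 to 244 FPKM in wild type luminal libraries. Gsn was the largest part, at 118 to 150 FPKM in Lgr5-DTR and 137 to 194 FPKM in wild type libraries. Of the 12, 4 were higher in every Lgr5-DTR library: Col1a1 (18.1 to 39.8 FPKM against 3.23 to 5.45 FPKM), Col3a1 (22.0 to 45.8 FPKM against 14.6 to 16.0 FPKM), Col1a2 and Serping1. Lum, Pdgfra, Dpt and Clec3b were below 1 FPKM in all. Platelet markers, relevant because platelets store thrombospondin, summed to 1.39 to 5.58 FPKM in Lgr5-DTR and 2.19 to 6.91 FPKM in wild type luminal libraries. The smooth muscle list summed to 37.1 to 82.2 FPKM in Lgr5-DTR and 33.8 to 60.6 FPKM in wild type, with overlap. The endothelial list also overlapped, at 10.4 to 15.2 FPKM in Lgr5-DTR and 9.27 to 14.7 FPKM in wild type.

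The 8 luminal epithelial markers summed to 14918 to 18985 FPKM in Lgr5-DTR luminal libraries and 24543 to 27069 FPKM in wild type luminal libraries. Only 1 of the 8, the secreted protein gene Pbsn, was lower in every Lgr5-DTR library, at 7500 to 9647 FPKM against 16876 to 22090 FPKM in wild type libraries. The keratin genes Krt8 and Krt18 had medians of 3805 and 4378 FPKM in Lgr5-DTR libraries, against 1281 and 2290 FPKM in wild type libraries, with overlapping ranges. The part of the glial, myeloid, pericyte, fibroblast and luminal markers in the luminal differences of Postn, Tnc, Tgfbi and the others was not tested.

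Postn, Sparc, Tgfbi and Ccdc80 were thus lower in every Lgr5-DTR stromal library and higher in every Lgr5-DTR luminal library than in any wild type library of the same population. This opposition is the pattern by which the genes were chosen, and no test result is given for it. Taking the stromal and luminal level of Postn side by side, Lgr5-DTR cells had 7.40 FPKM in stroma and 139 FPKM in luminal cells on average, whereas wild type cells had 39.0 FPKM in stroma and 20.0 FPKM in luminal cells. Sparc kept its stromal excess in both genotypes, at 829 FPKM in stromal and 241 FPKM in luminal cells of Lgr5-DTR mice and at 1426 and 84.6 FPKM in those of wild type mice. Ccdc80 had 26.6, 24.8 and 6.26 FPKM in Lgr5-DTR stromal, basal and luminal cells, against 104, 4.37 and 0.827 FPKM in wild type stromal, basal and luminal cells. The gap between its stromal and epithelial levels was smaller in the Lgr5-DTR libraries.

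**Figure D3:**
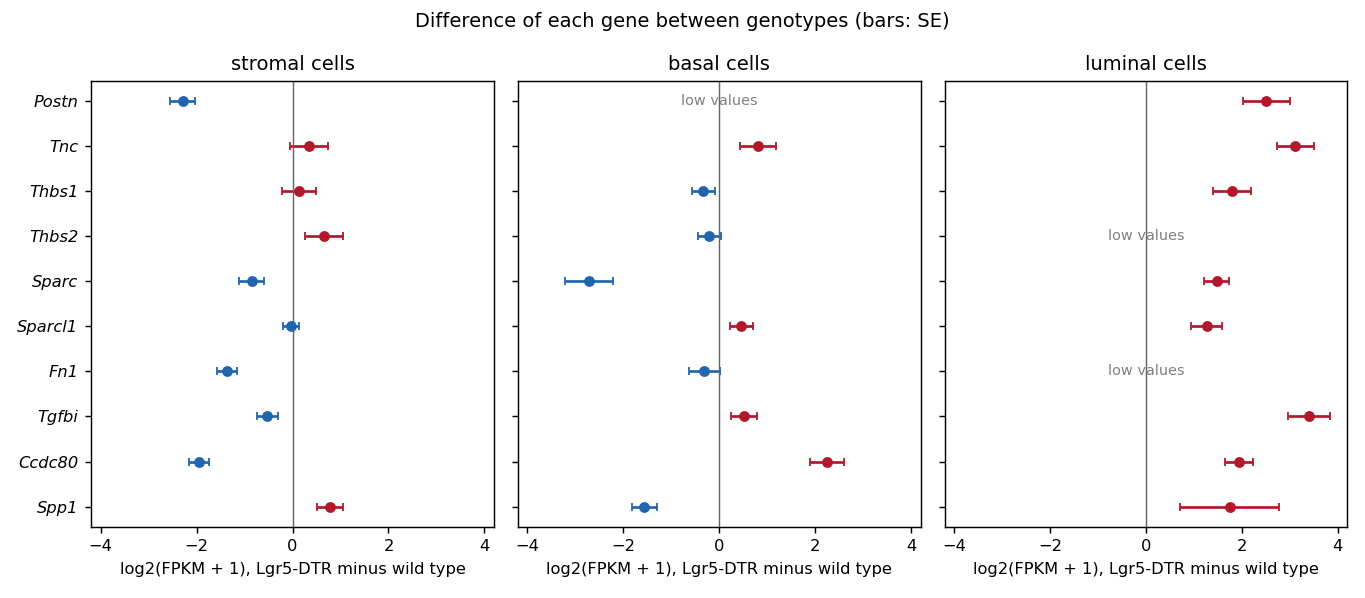
Difference of each gene between genotypes, by sorted population, on the log2(FPKM + 1) scale, Lgr5-DTR minus wild type, with its SE from limma as bars; blue marks lower and red higher in Lgr5-DTR, and genes below the filter are marked as low values. Postn lies at -2.29 in stromal and 2.51 in luminal cells, and Ccdc80 at -1.94 in the stroma, 2.24 in basal cells and 1.93 in luminal cells.

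The splice forms of Postn differed between populations as well as the total. The transcript with neither exon held 83.1%, 75.8%, 100% and 69.5% of Postn FPKM in Lgr5-DTR stromal libraries and 80.6%, 62.4% and 64.5% in wild type stromal libraries. In luminal cells it held 46.2%, 37.2% and 39.8% in Lgr5-DTR libraries and 17.6%, 25.5% and 23.5% in wild type libraries. In these estimates stromal Postn RNA was mainly the short form in both genotypes, wild type luminal Postn RNA was mainly the longer forms, and Lgr5-DTR luminal libraries lay between the others.

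The exon of 84 nt showed the clearest contrast between populations. Its transcript held 27.2%, 31.3% and 27.2% of Postn FPKM in Lgr5-DTR luminal libraries, against 37.6%, 43.7% and 37.4% in wild type luminal libraries. It was listed at 0 in all 4 Lgr5-DTR stromal libraries and in 2 of 3 wild type stromal libraries, with 10.3% in wild type stromal replicate 2. In absolute terms it was nonetheless higher in Lgr5-DTR luminal cells, at 59.0, 15.7 and 40.3 FPKM, against 6.90, 8.08 and 8.64 FPKM in wild type luminal cells. The transcript with the exon of 81 nt was at 57.8, 15.8 and 49.1 FPKM in Lgr5-DTR luminal libraries, against 8.25, 5.68 and 9.03 FPKM in wild type luminal libraries.

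These shares are Cufflinks estimates that divide reads among similar transcripts, a 0 among them can be a one-sided division, and GENCODE lists 1 further Postn transcript that carries both exons and is not in the tables. At the low Lgr5-DTR stromal level of 4.68 to 9.74 FPKM the shares are also the least precise. The 2 transcripts of Sparc gave no such contrast: NM_009242 held 78.0% to 88.1% of Sparc FPKM in all 19 libraries.

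**Figure D4:**
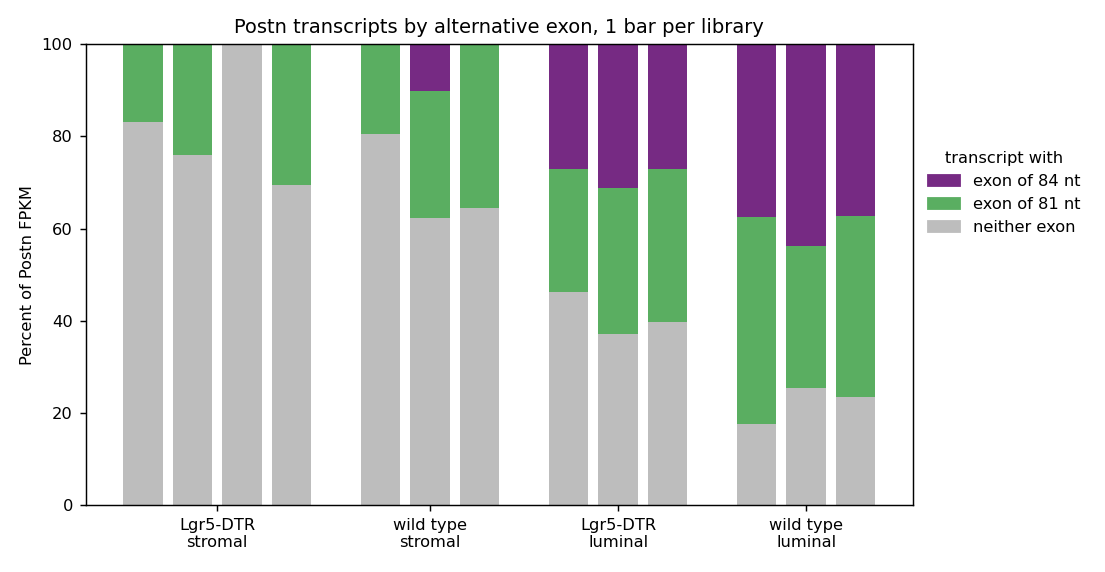
Percent of Postn FPKM in transcripts with the exon of 84 nt, the exon of 81 nt or neither, with 1 bar per library in replicate order, for Lgr5-DTR and wild type stromal and luminal cells. The transcript with neither exon holds 62.4% or more in every stromal library and 46.2% or less in every luminal library.

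To set the 10 genes among their kind, 46 related matrix genes were counted that were not picked for how they moved in this comparison, though the list was drawn up with earlier results of these data known. In stromal cells 35 were tested in limma, of which 7 fell and 0 rose, with 26 at an unadjusted p under 0.05, against 1.10% of all tested genes lower and 0.0655% higher. Their median log2 difference was -0.70 and that of all tested genes -0.09. Vtn, the adhesive vitronectin, fell to 2.44 ± 1.21 FPKM in Lgr5-DTR (SD, n = 4), against 12.6 ± 5.76 FPKM in wild type (SD, n = 3), and Emilin2, an elastin-associated glycoprotein, to 3.41 ± 0.63 FPKM against 12.2 ± 0.67 FPKM in wild type, with adjusted p = 0.0216 and 0.00552 in limma. Mfap4, a microfibril-associated protein that is also in the fibroblast list, averaged 110 ± 35.7 FPKM in Lgr5-DTR (SD, n = 4) and 347 ± 37.2 FPKM in wild type (SD, n = 3), limma adjusted p = 0.0089. The calcium-binding SPARC relative Smoc1 (-1.42, SE 0.25), Srpx (-1.28, SE 0.21) and the fibulin Fbln2 (-1.24, SE 0.22) fell too. Of these, only Emilin2 was called without each library in turn, and the list's count was 1 without wild type stromal replicate 3, 4 without wild type stromal replicate 2, and 3 without Lgr5-DTR stromal replicate 1, Lgr5-DTR stromal replicate 3 or wild type stromal replicate 1.

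In basal cells 16 related genes were tested, of which 3 rose and 10 fell, against 6.50% and 4.46% of all tested genes. Lgals3, a galectin that binds matrix glycans, averaged 796 ± 143 FPKM in Lgr5-DTR and 159 ± 62.1 FPKM in wild type basal cells (SD, n = 3 each, limma adjusted p = 0.00179). Ecm1 averaged 172 ± 51.5 FPKM in Lgr5-DTR and 56.9 ± 11.6 FPKM in wild type basal cells (SD, n = 3 each, limma adjusted p = 0.0078). Srpx was called higher too (1.30, SE 0.30), but it reached the filter through the Lgr5-DTR libraries alone (0.482 FPKM on average in wild type) and so had to differ, and it was not called when any single library was left out. The matricellular CCN genes Ctgf (-3.01, SE 0.50) and Cyr61 (-1.56, SE 0.22) fell, as did the SPARC relative Spock1 (-1.61, SE 0.27), Fbln2 (-1.97, SE 0.34), Aebp1 (-1.29, SE 0.24) and Matn2 (-1.25, SE 0.28). The median of the list was -0.96, against 0.02 over all tested genes. The count was 5 without wild type basal replicate 2 and 7 without Lgr5-DTR basal replicate 2 or 3.

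In luminal cells 20 related genes were tested, of which 4 rose and 0 fell, with 10 at an unadjusted p under 0.05, against 2.62% of all tested genes higher. Lgals3 averaged 180 ± 90.3 FPKM in Lgr5-DTR and 24.2 ± 12.6 FPKM in wild type luminal cells (SD, n = 3 each, limma adjusted p = 0.0217). Aebp1, a collagen-binding protein, averaged 18.7 ± 10.6 FPKM in Lgr5-DTR and 2.25 ± 0.62 FPKM in wild type luminal cells (SD, n = 3 each, limma adjusted p = 0.0149). Ecm1 (1.52, SE 0.25) rose too. The CCN gene Wisp1 (1.63, SE 0.36) was called as well, but it reached the filter through the Lgr5-DTR libraries alone (0.0448 FPKM on average in wild type) and so had to differ, and it was not called when any single library was left out. Lgals3 was called in 2 of the 6 fits that left out a library. The median of the list was 0.64, against 0.10 over all tested genes. None of the 4 was called without wild type luminal replicate 2 or without wild type luminal replicate 3, when limma left 9 and 10 of the list at an unadjusted p under 0.05.

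Whether the genotype difference itself differed between stromal and luminal cells was tested for the related genes in a limma interaction over the 9255 genes tested in both. Of 19 related genes, 8 had a lower genotype difference in stromal than in luminal cells and 0 a higher one, against 2.43% and 0.0756% of all genes. The smallest p belonged to Ecm1, whose interaction was -2.19 (SE 0.30, adjusted p = 0.00142). It averaged 506 ± 47.8 FPKM in Lgr5-DTR (SD, n = 4) and 808 ± 73.6 FPKM in wild type stromal cells (SD, n = 3), but 57.1 ± 15.6 FPKM in Lgr5-DTR and 19.4 ± 5.77 FPKM in wild type luminal cells (SD, n = 3 each). Srpx (-2.31, SE 0.33), Vtn (-3.05, SE 0.53), Aebp1 (-2.42, SE 0.47), Matn2 (-2.38, SE 0.50) and Fbln2 (-1.40, SE 0.30) followed. Ecm1, Srpx, Vtn and Aebp1 were called without each of the 13 libraries in turn. The count was 4 without Lgr5-DTR luminal replicate 1, wild type luminal replicate 2 or wild type stromal replicate 3, and 5 without wild type stromal replicate 1 or wild type luminal replicate 3.

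Receptors that bind these proteins were counted in the same way from a list of 20. In stromal cells 0 of 12 tested were called by limma, against 1.17% of all tested genes, with 2 at an unadjusted p under 0.05. In basal cells 3 of 14 rose and 2 fell, against 6.50% and 4.46% of all tested genes. The hyaluronan and osteopontin receptor Cd44 (1.65, SE 0.29), the thrombospondin receptor Cd47 (1.02, SE 0.16) and the integrin chain Itgb1 (0.87, SE 0.22) were higher, and Itga9 (-1.29, SE 0.23) and Itgb8 (-1.25, SE 0.23) lower. Itga9 and Itgb8 reached the filter through the wild type libraries alone, at 0.322 and 0.738 FPKM on average in Lgr5-DTR cells, so they had to differ. Of the 5, Cd47 was called without each library in turn. In luminal cells 2 of 12 rose, against 2.62% of all tested genes. Itga5, the fibronectin receptor chain, averaged 20.0 ± 7.33 FPKM in Lgr5-DTR and 3.89 ± 0.67 FPKM in wild type cells (SD, n = 3 each, limma adjusted p = 0.00817). Cd44 averaged 29.9 ± 12.8 FPKM in Lgr5-DTR and 7.54 ± 0.93 FPKM in wild type cells (SD, n = 3 each, limma adjusted p = 0.0164). Both luminal calls were lost without wild type luminal replicate 2 or 3. In the interaction 0 of 11 receptors were called by limma, against 2.51% of all tested genes, with 5 at an unadjusted p under 0.05.

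For each of the 10 genes the 3 genes outside the set with the most similar pattern were sought, by the root mean square difference of centred log2(FPKM + 1) over all 19 libraries. Sparcl1 had the closest match, Igfbp7, at 0.30, and Fn1 followed with Adamtsl4 at 0.31. Thbs1 was nearest to Steap4 at 0.40, Thbs2 to Plekho2 at 0.43, Tgfbi to Gbp2 at 0.57 and Ccdc80 to Ecm1 at 0.58. Tnc was nearest to Gap43 at 0.63, with Lyz2 and Ednrb next. Gap43 averaged 15.2 FPKM in Lgr5-DTR and 0.755 FPKM in wild type luminal cells. Sparc was nearest to Ptn at 0.76 and Spp1 to Arhgdib at 0.78. Postn had the most distant nearest match, S1pr3 at 0.91, followed by Srpx at 0.97, which had 78.9 FPKM in Lgr5-DTR and 37.4 FPKM in wild type luminal cells. The libraries share population, genotype and depth, so these distances describe likeness over the groups and no more.

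In mm10 the 10 genes lie on 9 chromosomes. Postn is at chr3:54361107-54391041, Tgfbi at chr13:56609603-56639339, Tnc at chr4:63959785-64047015, Thbs1 at chr2:118111922-118127133 and Thbs2 at chr17:14665500-14694262. Sparc is at chr11:55394159-55420080, Fn1 at chr1:71585473-71653234 and Ccdc80 at chr16:45094053-45127924. Sparcl1, at chr5:104079109-104114088, and Spp1, at chr5:104435111-104441053, lie 321 kb apart, and their values had little in common: Sparcl1 was a stromal transcript and Spp1 was highest in wild type basal and in 1 Lgr5-DTR luminal library.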

How the data were processed

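For every RefSeq transcript the authors deposited an FPKM; TopHat2, Cufflinks and the build mm10 are named in the submitters' processing notes, and their versions are not given in the sources used here. A coverage signal in the deposited tables served only to estimate depth as coverage times transcript length. Per the labels, RNA was amplified by a low-input full-length method and libraries were made by tagmentation.

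FPKM were summed per gene symbol over the 34535 transcripts of each of the 19 tables (Python 3.11.15, pandas 2.3.3, numpy 2.4.6). Genes with 1 FPKM in at least 3 libraries of a fit were tested with limma 3.58.1 in R 4.3.3 (trend, robust) on log2(FPKM + 1), which understates changes of low genes. Each population was fitted alone with genotype as the only term, and the stromal and luminal populations together for the interaction. Left out were 7 genes in the populations where their estimate had failed or was capped. The threshold was 0.05 after Benjamini-Hochberg adjustment over all genes of a fit. The fit was tested on simulated data. FPKM give no counts, so precision comes from the replicates. Alternatives were a pseudocount of 0.1, no filter, quantile scaling, a replicate block (the sample number in the description within a population, and for the interaction the title number within genotype, with a correlation estimated through statmod 1.5.0), the processing set as a covariate, and each library left out.

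The members, the 46 related matrix genes, the 20 receptors, the 9 marker lists and the tests were chosen with earlier results of these data known. Genes named from the lists are, in each population, up to 6 called per direction with the largest change, and for the interaction the 6 with the smallest p. The like genes are the 3 nearest per member. The markers named singly were picked after their values were seen. Of the marker lists, Emr1 and Gpr126 were not matched by symbol. Single values of some Schwann cell markers are not reported here.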

Additional observations from a re-analysis of the deposited data

Results flagged for a closer look

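Genotype differences of opposite sign in 2 populations were noted for 4 members. In each of the 2 populations every Lgr5-DTR library lay on one side of every wild type library. No test result is given for the difference between the populations, because the genes were chosen for it. On the log2(FPKM + 1) scale, Postn had -2.29 in stromal and 2.51 in luminal cells. Sparc had -0.85 in stromal and 1.47 in luminal cells, and -2.72 in basal against the same 1.47 in luminal cells. Tgfbi had -0.53 in stromal and 3.39 in luminal cells. Ccdc80 had -1.94 in stromal and 1.93 in luminal cells, and -1.94 in stromal against 2.24 in basal cells.

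For 8 related matrix genes the limma interaction found a genotype difference that was lower in stromal than in luminal cells. For the 6 with the smallest p it was -2.19 for Ecm1 (adjusted p = 0.00142), -2.31 for Srpx (0.00196), -3.05 for Vtn (0.00649), -2.42 for Aebp1 (0.0124), -2.38 for Matn2 (0.019) and -1.40 for Fbln2 (0.0219). Matn2 and Fbln2 were lost without some of the libraries left out in turn. A library far from the rest of its group was looked for in the 10 sets of 4 Lgr5-DTR stromal values, and 0 were found.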

How the results depend on the processing

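Of 292 member differences recomputed, 285 moved by less than the spread between libraries and 7 by more, of which 6 came with the pseudocount of 0.1. Counts of calls over all genes and over the related genes moved far more. Without the filter on low values, stromal calls were 36 (related matrix genes 1), basal 492 (7) and luminal 4 (0), with 2947 luminal genes and 13 related genes at an unadjusted p under 0.05 in limma. Quantile scaling gave 77 stromal calls, 217 luminal (144 higher and 73 lower, against 276 and 54) and 81 in the interaction (related genes 4), and shifted the median log2 difference of all genes by 0.12 in stromal and -0.15 in luminal cells. With the processing set as a covariate there were 49 stromal calls (3 related) and 750 luminal ones. Of the stromal libraries only Lgr5-DTR replicate 3 is in that set, so the stromal differences equal those without it (Postn -2.12 in both). Leaving out each library gave 31 to 232 stromal calls (related 1 to 9), 290 to 2231 basal (5 to 12), 0 to 876 luminal (0 to 5) and 82 to 268 interaction calls (4 to 8). The 0 came without wild type luminal replicate 3, when limma left 1818 genes at an unadjusted p under 0.05, and 26 genes were called without wild type luminal replicate 2. Deviations from the group mean were compared between libraries of the 2 genotypes with the same sample number in the descriptions. They correlated at -0.046 to 0.486 in stromal, -0.529 to -0.247 in basal and -0.115 to 0.377 in luminal cells. For different numbers the correlations were -0.391 to 0.11 in stromal, -0.263 to 0.454 in basal and -0.558 to 0.366 in luminal cells. Whether these numbers pair the libraries cannot be told from so few values. With these numbers as the replicate block there were 1041 stromal calls (related 22), 314 higher and 727 lower, with 213 basal calls (3) and 755 luminal ones (7). Lgr5-DTR stromal replicate 4 has no wild type library of its number, so the stromal differences in the block equal those without it (Postn -2.21 in both). The causes of these changes were not tested. The main counts were 125 (7), 1069 (13), 330 (4) and 232 (8). Genes with fewer than 3 libraries of a fit at 1 FPKM, as Fn1 and Thbs2 in luminal cells, fell under the filter on low values. Their differences were not fitted.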
